A study of Homo sapiens with 68 samples.

Results

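The libraries described here profiled RNA bound to RBFOX2 with and without polyacrylamide gel electrophoresis (PAGE) and excision of the complexes. They are 4 of the 68 libraries of a TLC-CLIP series and were chosen by their titles: 2 replicates of RBFOX2_50k_lowRNase, made with PAGE, and 2 replicates of RBFOX2_50k_noPAGE, made without it. All 4 used HEK293T, an established line of human embryonic kidney origin, crosslinked with ultraviolet light, with 50000 cells, 0.005 U of RNase and an antibody named RBM9, another name of RBFOX2. The labels do not say whether the replicates were separate cultures, so p-values measure only the spread between these samples, which may be technical.

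Other groups of 2 libraries serve as reference points. RBFOX2_50k_noPAGE_RecJ matches the libraries without PAGE in cells and RNase, with RecJ, an exonuclease, in its title. RBFOX2_10k was made with PAGE from 10000 cells with 0.001 U of RNase. The groups noUV_RBFOX2 and noUV_noPAGE_RBFOX2 were, by their titles, not crosslinked. The hnRNPA1 and hnRNPI groups of 50k cells, with PAGE (lowRNase) and without it, differ from the RBFOX2 groups in the antibody. For hnRNPc, the group of 50k cells without PAGE was used only to look up sites. The step was not compared in that protein, because a list of its group with PAGE is very short.

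RBFOX2 is an RNA-binding protein that regulates alternative splicing, mostly from introns next to regulated exons, where its single RNA recognition motif prefers elements that contain GCAUG. In CLIP, PAGE separates crosslinked complexes by size, so that RNA is taken from the part of the gel where the protein with its attached fragments runs. Without that step, the RNA that stayed on the beads through the washes goes on to the library. The question of the comparison is which genes and kinds of RNA gain or lose peaks and reads when the step is left out.

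Each deposited list gives peaks with a position in hg19, a gene identifier and a read number, the last number of the peak name. The share of a gene is the sum of its read numbers in parts per 1000000 (ppm) of the list's sum. Sequencing depth is unknown, so a share says nothing of amounts of RNA, and a lower share can mean that other genes took more of the library. Fewer bound molecules and less retained RNA cannot be told apart. The lists do not pair identifiers with gene names or gene types, so genes are given by position and described by extent, the distance over which their peaks lie in any of the 68 lists. Extent is that of peaks: a long gene with peaks at 1 place counts as short. Small nuclear and small nucleolar RNAs are genes of short extent, but no gene here is assigned to them.

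Without PAGE the lists were shorter and more concentrated. With PAGE they held 260610 and 208407 peaks in 15114 and 14302 genes, and without PAGE 157375 and 161434 peaks in 13296 and 13380 genes. The covered length was 14.4 ± 2.08 Mb (SD, n = 2) with PAGE and 9.55 ± 0.128 Mb (SD, n = 2) without. The difference in mean peak number was −75104 without PAGE, and −49002.5 when RBFOX2_50k_lowRNase replicate 1 was left out. The summed read numbers, in units of 1000000, went the other way, from 5.91 ± 1.21 (SD, n = 2) to 9.42 ± 0.411 (SD, n = 2), and their mean per covered nucleotide from 0.409 ± 0.0252 to 0.986 ± 0.0298 (SD, n = 2 each). With 2 libraries against 2, the smallest p an exact permutation test allows is 0.333, so that test cannot pass a threshold of 0.05 for a list measure or class share.

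The typical peak had a like read number in both groups, and a few peaks had far more without PAGE. The median read number was 10 and 9 with PAGE and 11 in both libraries without, while the mean was 26.0 and 24.3 with PAGE and 58.0 and 60.2 without. Peaks with a read number of 1000 or more made up 0.145% and 0.120% of peaks and 16.2% and 14.8% of reads with PAGE. Without PAGE they made up 0.538% and 0.525% of peaks and 52.4% and 53.8% of reads. The 10 most-read genes held 11.7% and 12.7% of reads with PAGE and 34.7% and 37.3% without. Neighbouring peaks may repeat the same reads, which was not checked. After peaks less than 30 nt apart were joined and the highest read number kept, the sums in the same units were 4.03 ± 0.755 (SD, n = 2) with PAGE and 4.01 ± 0.0754 (SD, n = 2) without, so the higher sum without PAGE was not seen on that scale. The share of the 10 most-read genes on that scale was 3.69 ± 0.171% with PAGE and 14.8 ± 0.182% without (SD, n = 2 each).

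By class, reads shifted to genes of short extent and to the mitochondrial chromosome, and away from long genes. Genes with an extent of up to 400 nt held 11.2% and 11.6% of reads with PAGE and 35.9% and 37.3% without. The groups did not overlap, and the difference of 25.2 percentage points was many times the SD of 1.04 between the libraries without PAGE. Joined peaks gave 4.24 ± 0.0895% and 17.5 ± 0.305% (SD, n = 2 each), and counting each place once whatever its genes gave 4.15 ± 0.107% and 16.5 ± 0.316% (SD, n = 2 each). The size of the share thus depends on how repeated peaks are counted, and its direction did not. It also rests in part on single places. The most-read place, on chromosome 11 and described below, belongs to this class, so the sum does not stand for the typical short gene.

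Mitochondrial genes held 1.49% and 1.74% of reads with PAGE and 6.82% and 7.39% without. In each library most of this share lay in a single gene, at chrM:1673-3203, described below with the most-read genes. Genes with an extent over 100 kb went from 20.6% and 20.0% to 9.55% and 8.81%, and those of 10 to 100 kb from 51.3% in both libraries to 33.6% and 32.6%. Genes from 400 nt to 10 kb differed least, at 15.4% in both libraries with PAGE and 14.2% and 13.9% without. In every class the libraries of the groups did not overlap. The share of peaks moved less than the share of reads: genes over 100 kb held 43.3% and 41.4% of peaks with PAGE and 35.0% and 35.2% without, and genes up to 400 nt 0.471% and 0.495% with PAGE and 0.863% and 0.842% without.

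Libraries outside the comparison gave levels on both sides. In the RecJ libraries, also without PAGE, genes up to 400 nt held 36.1% and 30.8% of reads, and in the 10k libraries, with PAGE, 12.8% and 13.7%. Genes over 100 kb held 8.45% and 9.26% in the RecJ libraries and 23.1% and 22.1% in the 10k libraries. The mitochondrial share was higher in both, at 10.3% and 9.61% in the RecJ libraries and 4.38% and 3.36% in the 10k libraries. Cell number and RNase also differ between the RecJ and 10k libraries.

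**Figure D1:**
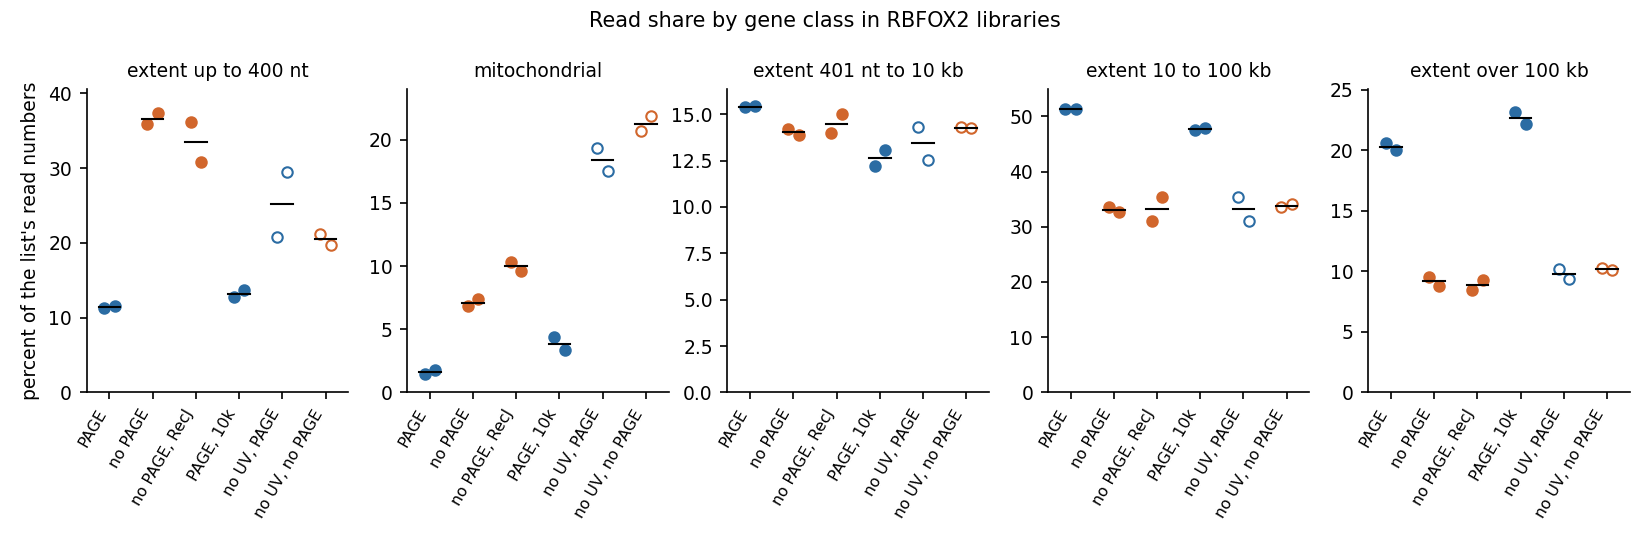
Percent of each list's summed read numbers in 5 classes of genes, by group of RBFOX2 libraries. Points are libraries (2 per group), black bars group means, orange libraries without PAGE, blue with PAGE, and open points libraries without crosslinking. Genes up to 400 nt held 11.2% and 11.6% of reads with PAGE and 35.9% and 37.3% without, and genes over 100 kb 20.6% and 20.0% with PAGE and 9.55% and 8.81% without.

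Gene by gene, most shares were lower without PAGE and a small set was far higher. Of 16369 genes listed in any of the 4 libraries, 9023 had a mean summed read number of at least 50 and were tested with limma (on log2 of the share with 5 added, Benjamini-Hochberg adjustment over all genes, threshold 0.05). A higher share was called in 430 genes, 4.77% of those tested, and a lower share in 7262, or 80.5%. The median change was −0.93 on the log2 scale, so most lower calls lie near a shift shared by the typical gene. With each library centred on its median gene, 1929 genes were called higher, 21.4%, and 1563 lower, 17.3%. The 430 genes held 15.6% and 15.0% of reads with PAGE and 54.5% and 55.4% without.

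Extent ordered the changes. Of 363 tested genes with an extent of up to 400 nt, 242 were called higher, 29 lower and 92 not called, with a median change of 1.03, against −0.93 over all genes tested. After centring, 323 of them were called higher and 3 lower. Of 22 mitochondrial genes 16 were called higher and 3 lower, with a median of 1.91. Of 1556 genes from 400 nt to 10 kb, 83 were called higher and 986 lower, with a median of −0.58. The median was −0.89 for the 5120 genes of 10 to 100 kb and −1.43 for the 1962 genes over 100 kb, of which 16 were called higher and 1907 lower. Relative to the median gene, 58 genes over 100 kb were higher and 977 lower.

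**Figure D2:**
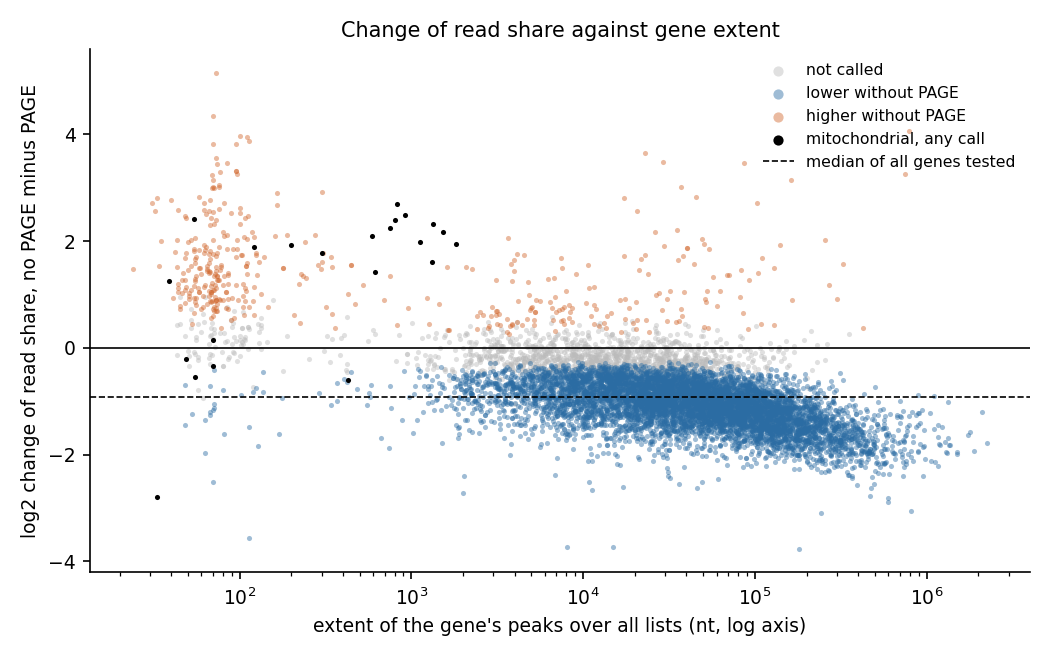
Log2 change of the read share (without PAGE minus with PAGE) of the 9023 genes tested, against the extent of each gene's peaks on a log axis. Orange and blue points are genes called higher and lower by limma, grey points are not called, black points are mitochondrial, and the dashed line is the median of −0.93. Genes up to 400 nt lie mostly above 0 (median 1.03) and genes over 100 kb mostly below the dashed line (median −1.43).

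Within the shortest class, 61 of 84 genes with an extent of up to 60 nt were called higher. In the next bins, which ended at 90, 120, 200 and 400 nt, these were 110 of 152, 37 of 65, 16 of 33 and 18 of 29. The median change was 1.08, 1.06, 0.87, 0.61 and 0.64 in the 5 bins. In longer genes, the reads of higher genes sat more at 1 place. For the 73 higher genes of 10 to 100 kb, the highest joined site held a median of 36.7% and 35.2% of the gene's reads with PAGE and 63.8% and 64.8% without. Over all 5120 genes tested in that class it held 17.3% and 19.0% with PAGE and 19.4% and 18.8% without. For the 16 higher genes over 100 kb these medians were 41.8% and 40.6% with PAGE and 85.4% and 87.2% without, and the highest site had a median length of 106 and 104.5 nt without PAGE. The genes were picked for their rise, so these values describe them and test nothing.

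Of the 10 highest changes, 1 per place, 8 lay at genes with an extent of 70 to 113 nt. The highest was ENSG00000199377.1 at chr1:45187504-45187576 on the minus strand, an extent of 73 nt. Its share was 46.5 and 38.9 ppm with PAGE and 1606 and 1765 ppm without, a log2 change of 5.15 ± 0.12 (SE, limma adjusted p 2.0e-07). Its peaks went from 1 in each library to 5 and 6, stacked on the same place. The highest read number there, which is not inflated by stacking, was 315 and 197 with PAGE and 3178 and 3072 without. With joined peaks the log2 change was 3.54.

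A gene of 70 nt at chr2:101889440-101889509, minus strand, held 66.9 and 74.9 ppm with PAGE and 1305 and 1822 without. On chromosome 15, plus strand, the genes at 65588389-65588488 and 65597015-65597127 rose to like levels. The first held 70.7 and 69.4 ppm with PAGE and 1180 and 1152 without. The second held 112 and 77.1 with PAGE and 1845 and 1128 without. These loci stood more than 10 times higher in each library without PAGE than in any with it.

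ENSG00000242808.2 differs from these in extent. Its peaks span chr3:180735264-181529134 on the plus strand, but 99.4% to 100% of its joined reads lay at 180949522-180949591 in each of the 4 libraries. The gene held 844 and 954 ppm with PAGE and 17001 and 13543 without, a log2 change of 4.07 ± 0.17 (SE, limma adjusted p 2.8e-06). The highest read number at that place was 1458 and 1208 with PAGE and 26149 and 22157 without. Its number of peaks was 7 and 5 with PAGE and 6 and 7 without, so reads and not peaks were gained there.

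The other 5 of the 10 had log2 changes from 3.56 to 3.96. The gene at chr1:45285544-45308594, minus strand, had all its joined reads without PAGE at 45285573-45285671. The gene at chr20:2634858-2634930 was listed at 0 in 1 library with PAGE and at 69.1 ppm in the other. Its log2 change of 3.56 was 5.51 without RBFOX2_50k_lowRNase replicate 1 and 1.62 without replicate 2. It lost its call without RBFOX2_50k_noPAGE replicate 1 (log2 change 3.37, limma adjusted p 0.055) and kept it in the other 3 fits that left out 1 library.

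The 10 lowest changes were of another kind. Of them, 5 lay in genes over 100 kb, 1 in a gene up to 400 nt and 1 on the mitochondrial chromosome. ENSG00000171105.9, at chr19:7112293-7293391 on the minus strand, held 74.7 and 158 ppm with PAGE and 2.74 and 4.12 without. The log2 change was −3.76 ± 0.30 (SE, limma adjusted p 1.2e-05). With PAGE, 61.1% and 78.2% of its joined reads lay at 7122975-7122996, with read numbers of 190 and 244. That place is narrower than the median peak, of 62 and 63 nt in the libraries with PAGE. Neither library without PAGE listed a peak at that place, although they listed 3 and 8 peaks elsewhere in the gene.

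ENSG00000101997.7, at chrX:49091991-49106958 on the plus strand, held 119 and 116 ppm with PAGE and 4.49 and 3.91 without, a log2 change of −3.74 ± 0.15 (SE, limma adjusted p 2.7e-06). Its peaks went from 19 and 18 to 1 in each library, and its reads with PAGE were spread, the highest site holding 17.3% and 18.6%. The gene at chr3:51967458-51975502, minus strand, had 15 and 7 peaks with PAGE, and without PAGE 1 peak in one library and none in the other. The gene at chr12:56551347-56553337, plus strand, held 28.1 and 27.9 ppm with PAGE and was listed at 0 in both libraries without it.

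Of the wide genes among the 10, a pair had many peaks with PAGE and fewer without, in lists that were also shorter. At chr16:12071110-12667831, plus strand, 62 and 51 peaks with PAGE stood against 10 and 9 without, and at chr2:218154712-218621284, minus strand, 89 and 58 stood against 13 and 16. Their log2 changes of read share were −2.89 and −2.77. A mitochondrial gene of 33 nt at chrM:5827-5859 on the minus strand went against its class, from 320 and 374 ppm with PAGE to 52.1 and 40.2 without.

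**Figure D3:**
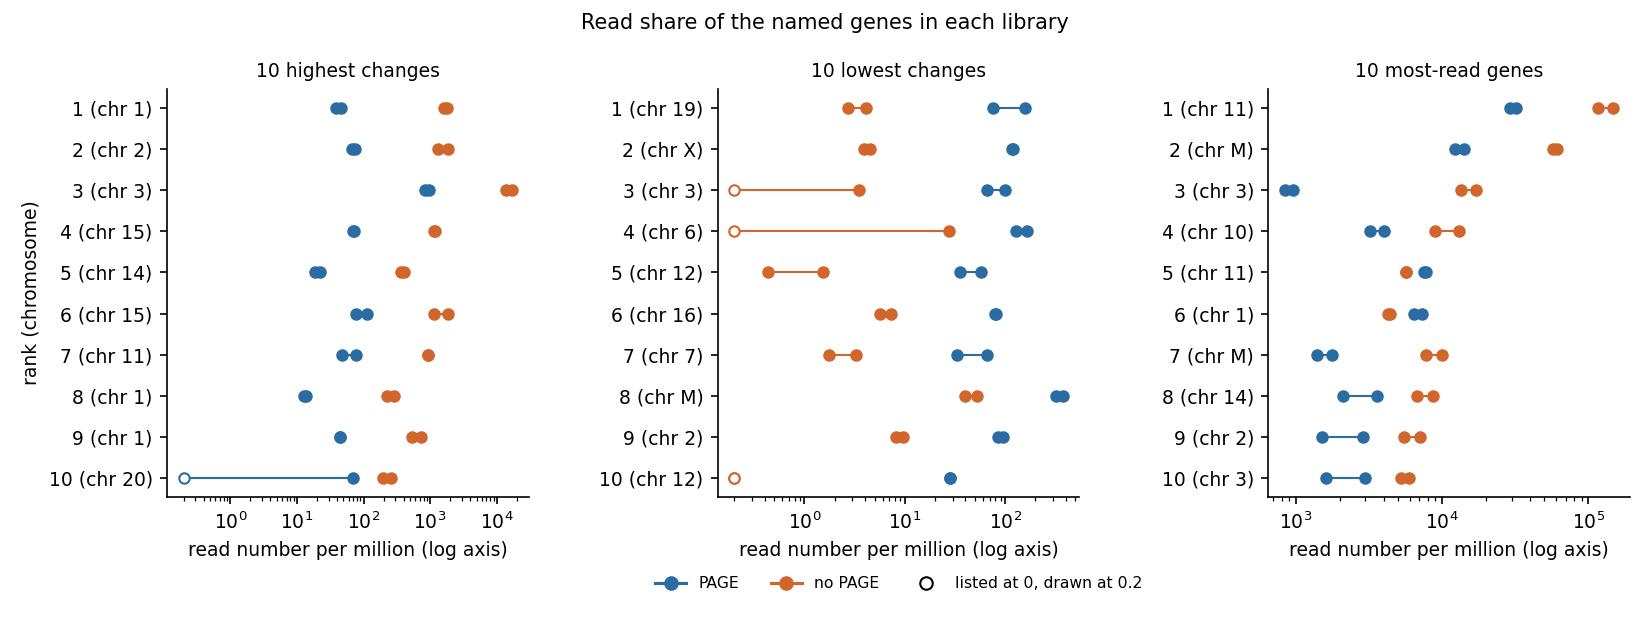
Read share per 1000000 of the list sum (ppm) on a log axis for the 10 highest and 10 lowest called changes and the 10 most-read genes, 1 row per gene in order of rank, labelled by chromosome. Each point is a library, blue with PAGE and orange without, and open points at 0.2 are libraries that list the gene at 0. The first gene of the left panel held 46.5 and 38.9 ppm with PAGE and 1606 and 1765 without, and the first of the middle panel 74.7 and 158 with PAGE and 2.74 and 4.12 without.

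Among the 10 most-read genes, 8 were higher and 2 lower without PAGE on the scale of the list sum. The most-read place was chr11:62609117-62609282 on the minus strand, where 2 identifiers list the same peaks. Its most-read identifier held 29003 and 31999 ppm with PAGE and 115979 and 148476 without, a log2 change of 2.11 ± 0.35 (SE, limma adjusted p 5.4e-04). The highest read number at the place was 22905 and 16726 with PAGE and 163014 and 160867 without.

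The next were a mitochondrial gene at chrM:1673-3203 on the plus strand, at 12302 and 14159 ppm with PAGE and 57854 and 61094 without, and the chromosome 3 gene above. Its neighbour at chrM:651-1566 went from 1388 and 1782 to 7813 and 10077. A gene at chr10:103124607-103124717, minus strand, went from 3229 and 3998 to 13051 and 8952. The groups did not overlap at these genes. Those at chr14:95998697-96000938, chr2:234160317-234204268 and chr3:160212868-160283358 had log2 changes of 1.47, 1.57 and 1.36.

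The 2 lower genes depended on scaling. The gene at chr11:65266513-65273500, plus strand, held 7759 and 7483 ppm with PAGE and 5636 and 5652 without, a log2 change of −0.43 (limma adjusted p 0.038). Relative to the median gene it was higher, by 0.52 (limma adjusted p 0.038), and with joined peaks it was 0.068 higher and not called. It also lost its call in each of the 4 fits that left out 1 library (limma adjusted p 0.063 to 0.13) and with a replicate block (limma adjusted p 0.072). The gene at chr1:109642815-109643183, plus strand, held 6394 and 7358 with PAGE and 4301 and 4381 without, a log2 change of −0.66. Relative to the median gene it was 0.30 higher and not called, and with joined peaks it was higher, by 0.78.

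The number of peaks per gene, as a share of the list, changed in fewer genes. limma called 925 of the same 9023 genes higher, 10.3%, and 666 lower, 7.38%, with a median change of 0.10. Of genes over 100 kb, 37 were higher and 482 lower with a median of −0.26. Of genes up to 400 nt, 133 of 363 were higher and none lower, with a median of 0.60. The lists held a mean of 234508.5 peaks with PAGE and 159404.5 without, so an unchanged number of peaks gives a higher share. ENSG00000242808.2, with 7 and 5 peaks with PAGE and 6 and 7 without, had a change of 0.59 and was not called. A higher peak share is thus not by itself a gain in peaks. The count moved when libraries were left out. Without RBFOX2_50k_noPAGE replicate 1 or replicate 2 limma called 0 genes (2047 and 2134 at an unadjusted p below 0.05), and it was 932 without RBFOX2_50k_lowRNase replicate 1 and 1327 without replicate 2. With no filter on low values the limma count was 0, with 3603 of 16369 genes at an unadjusted p below 0.05.

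Few genes were gained or lost outright. Both libraries with PAGE and neither without listed 680 genes, with a median summed read number of 12 in the library where each was highest. Both without PAGE and neither with listed 158, with a median of 11. All 4 listed 11964. Of the 680 genes, 22.6% had an extent over 100 kb and 7.21% up to 400 nt. Of the 158, 3.16% had an extent over 100 kb and 39.9% up to 400 nt. Over all 16369 genes listed in any of the 4 libraries these shares were 17.7% and 6.45%, near those of the 680. Of the 680 genes, 60.9% were listed in a 10k library and 41.8% in a RecJ library, and of the 158 genes 25.9% and 81.6%. Over all 16369 genes they were 85.0% and 85.5%, so the share of the 158 found in a RecJ library lies near that of all genes. The medians of 12 and 11 for the 680 and 158 genes stand against 101 over all 16369 genes, and the part of depth was not tested.

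Peaks of 1 group were less often found in the other group than in the other replicate, for the libraries with PAGE. With an overlap of at least 1 nt on the same strand, 45.1% and 55.4% of PAGE peaks were overlapped by the other replicate and 30.0% to 34.1% by a library without PAGE. Of the peaks without PAGE, 48.9% and 47.9% were overlapped by the other replicate and 44.0% to 48.4% by a library with PAGE. The lists with PAGE are longer, and a longer list overlaps more peaks.

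Peaks of the 4 libraries were merged into 418464 sites. Of these, 34039 had a peak in all 4 libraries, 36863 in both with PAGE and neither without, and 14312 in both without PAGE and neither with. Sites found with PAGE alone lay in genes over 100 kb in 44.0% of cases, against 24.0% of those found without PAGE alone and 34.4% of sites in all 4. They had a median width of 82 nt and a median highest read number of 12, against 70 nt and 16 for the sites found without PAGE alone and 146 nt and 32 for sites in all 4.

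Both sets were looked up in libraries outside the comparison. Sites found with PAGE alone were overlapped in 36.0% and 38.8% by the 10k libraries and in 19.0% and 18.9% by the RecJ libraries. Sites found without PAGE alone were overlapped in 12.05% and 14.8% by the 10k libraries and in 53.9% and 53.8% by the RecJ libraries. Sites in all 4 libraries were overlapped in 76.8% and 78.6% and in 83.2% and 83.5%. The order was the same among sites with a median read number of at least 10, where 48.6% and 52.4% of PAGE sites and 13.6% and 16.4% of sites without PAGE were found in the 10k libraries.

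The sets were also looked up in libraries without crosslinking and of other proteins, where the order varied. The noUV_noPAGE_RBFOX2 libraries overlapped 26.1% and 28.5% of the sites found without PAGE alone, 2.91% and 3.65% of those found with PAGE alone and 27.0% and 30.7% of sites in all 4. The noUV_RBFOX2 libraries, which had PAGE, overlapped 12.5% and 9.60% of the first set, 2.04% and 1.46% of the next and 17.2% and 14.4% of sites in all 4. The hnRNPA1 libraries with PAGE overlapped 28.6% and 29.1% of the sites found with PAGE alone and 11.2% and 10.8% of those found without. The hnRNPA1 libraries without PAGE kept that order, at 26.7% and 26.2% against 19.4% and 18.8%. For hnRNPI with PAGE the shares were 16.3% and 16.1% against 8.24% and 6.89%, and without PAGE 12.8% and 12.5% against 13.7% and 12.8%. For hnRNPc without PAGE they were 8.69% and 9.68% against 16.8% and 17.4%, the opposite order. These lists differ in length, so shares are read between sets within a library.

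**Figure D4:**
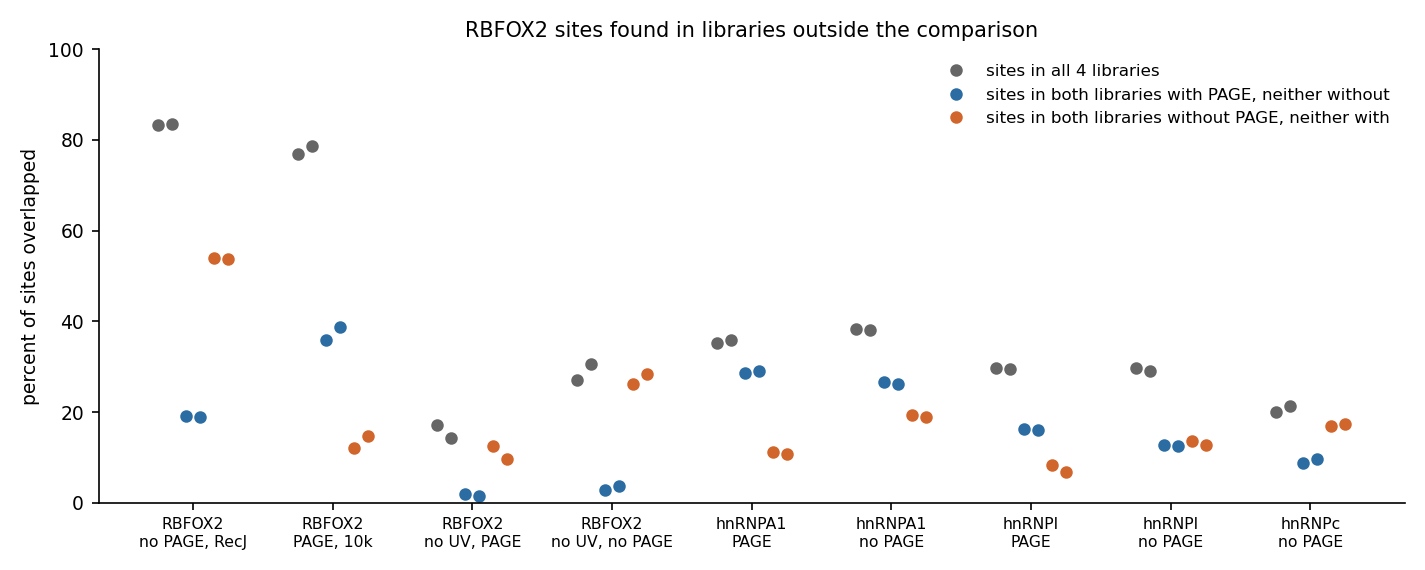
Percent of RBFOX2 sites overlapped by at least 1 nt in libraries outside the comparison (2 points per group, 1 per library). Grey points are the 34039 sites in all 4 libraries, blue the 36863 in both with PAGE and neither without, and orange the 14312 in both without PAGE and neither with. In the RecJ libraries orange lies at 53.9% and 53.8% and blue at 19.0% and 18.9%, and in the 10k libraries blue lies above orange.

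The 34039 sites in all 4 libraries allow a comparison in which listing does not differ. limma called 1485 sites higher without PAGE, 4.36%, and 10589 lower, 31.1%, with a median change of −0.41. Relative to the median site 4237 were higher and 1752 lower. Each of the 4 fits that left out 1 library called fewer, from 6434 without RBFOX2_50k_lowRNase replicate 2 to 6970 without RBFOX2_50k_noPAGE replicate 1, with 6855 without RBFOX2_50k_lowRNase replicate 1 and 6797 without RBFOX2_50k_noPAGE replicate 2. Of 468 sites in genes up to 400 nt, 297 were higher and 30 lower with a median of 0.97. Of 11725 sites in genes over 100 kb, 96 were higher and 4500 lower with a median of −0.52. Of 40 mitochondrial sites, 35 were higher.

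Single sites changed as the genes did. The highest was the chromosome 3 place above, with a log2 change of 3.91 ± 0.12 (SE, limma adjusted p 3.3e-17). A site at chr14:50053513-50053596, plus strand, had read numbers of 215 and 90 with PAGE and 2017 and 2412 without. Another at chr2:175422733-175422801, minus strand, had 420 and 336 with PAGE and 5375 and 4585 without. The lowest lay in genes of 10 to 100 kb, except for 1 on the mitochondrial chromosome. At chr17:78078935-78079242, plus strand, the read numbers were 466 and 436 with PAGE and 97 and 95 without, a log2 change of −2.38 ± 0.20 (SE, limma adjusted p 4.0e-09). At chr16:3729476-3729755, minus strand, they were 250 and 175 with PAGE and 46 in both libraries without, and at chr4:1289602-1289772, plus strand, 168 and 138 against 31 and 34. Read numbers here are unscaled.

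Sites that were called also differed in where else they were listed. Of the 1485 higher sites, 62.6% and 57.0% were overlapped in the noUV_RBFOX2 libraries, against 14.3% and 11.7% of the 10589 lower sites and 17.2% and 14.4% of all tested. In the 10k libraries the higher sites were overlapped in 62.1% and 67.1% and the lower in 90.4% and 90.9%. In the RecJ libraries these shares were 98.3% and 98.5% for the higher and 85.4% and 85.2% for the lower sites. The sets were not matched by read number, and the part of read level in these shares was not tested.

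The 430 genes called higher were set against libraries that share no sample with the comparison. In 395 of them (91.9%), both RecJ libraries stood above both 10k libraries, which was the case for 9.79% of all genes tested. Of the 7262 genes called lower, 6273 (86.4%) stood lower in both RecJ libraries than in both 10k libraries, against 76.2% of all genes tested, so that share lies near the background. In the noUV_RBFOX2 libraries, made with PAGE, the 430 genes held 46.9% and 50.9% of reads, and in the noUV_noPAGE_RBFOX2 libraries 49.6% and 48.6%.

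Omitting PAGE without crosslinking gave other values. Genes up to 400 nt held 20.8% and 29.5% of reads in the noUV_RBFOX2 libraries and 21.2% and 19.7% in noUV_noPAGE_RBFOX2, with overlapping groups. Genes over 100 kb held 9.76 ± 0.618% and 10.2 ± 0.105% (SD, n = 2 each), close to the 9.18 ± 0.523% (SD, n = 2) of the crosslinked libraries without PAGE. limma called none of 2487 genes higher and 3 lower, 0.121%, and 301 genes (12.1%) had an unadjusted p below 0.05. The count was 571 without noUV_RBFOX2 replicate 1, 235 without replicate 2, 5 without noUV_noPAGE_RBFOX2 replicate 2, and 0 by limma without noUV_noPAGE_RBFOX2 replicate 1, where 89 had an unadjusted p below 0.05. The libraries that were not crosslinked held summed read numbers of 0.498 to 2.09 in units of 1000000, fewer than the 5.06 to 9.71 of the crosslinked ones. A test of the difference between the crosslinked and the uncrosslinked change was not run.

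The same step in hnRNPA1 and hnRNPI shared the mitochondrial direction with RBFOX2. In the summed share of short genes hnRNPI had the direction of RBFOX2, at lower levels, and hnRNPA1 the opposite one. The mitochondrial share went from 1.75 ± 0.342% to 24.4 ± 0.268% in hnRNPA1 and from 0.349% in both libraries to 1.91 ± 0.185% in hnRNPI (SD, n = 2 each), beside 1.61 ± 0.179% and 7.10 ± 0.406% in RBFOX2. Genes up to 400 nt held 3.08 ± 0.530% with PAGE and 1.77 ± 0.311% without in hnRNPA1, and 1.43 ± 0.275% and 3.05 ± 0.691% in hnRNPI (SD, n = 2 each). The median share of the 363 short genes tested in RBFOX2 was 0 in both hnRNPA1 libraries with PAGE and 0.959 and 0.729 ppm without. The 242 of them called higher in RBFOX2 held 0.124% and 0.112% of hnRNPA1 reads with PAGE and 0.717% and 0.396% without. The 29 called lower held 0.0665% and 0.0707% with PAGE and 0.0444% and 0.0434% without. The summed share thus does not stand for the typical short gene in hnRNPA1. Genes over 100 kb went from 44.6 ± 0.205% to 32.8 ± 0.101% in hnRNPA1 and from 48.9 ± 2.15% to 44.6 ± 0.959% in hnRNPI (SD, n = 2 each). The ratio without over with PAGE was 0.734 and 0.912 there and 0.453 in RBFOX2. These class shares were compared without a test.

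**Figure D5:**
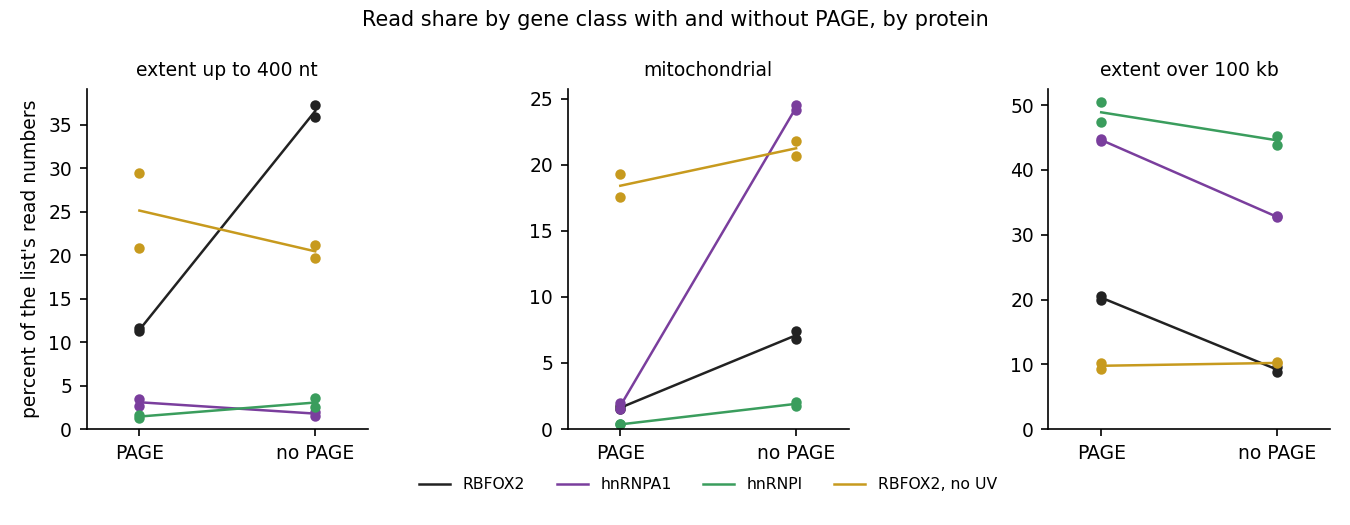
Percent of summed read numbers in genes up to 400 nt, mitochondrial genes and genes over 100 kb, with and without PAGE, for RBFOX2, hnRNPA1, hnRNPI and RBFOX2 without crosslinking. Points are libraries and lines join group means (n = 2). Genes up to 400 nt went from a mean of 11.4% to 36.6% in RBFOX2 and from 3.08% to 1.77% in hnRNPA1, and the mitochondrial share of hnRNPA1 reached 24.4%.

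The difference itself was tested over 12 libraries, as the RBFOX2 change minus the mean change of hnRNPA1 and hnRNPI. limma called 342 of 10672 genes more positive in RBFOX2, 3.2%, and 6421 more negative, 60.2%, together 63.4%, with a median of −0.67. Centred on the median gene, 1815 were more positive and 1399 more negative. Of 291 genes up to 400 nt, 147 were more positive and 13 more negative with a median of 0.77. For the 363 short genes tested in RBFOX2, the median share was 0 in the hnRNPA1 and hnRNPI libraries with PAGE. Without PAGE it was 0.959 and 0.729 ppm in hnRNPA1 and 3.88 and 2.48 in hnRNPI. These lie below the 5 ppm added before the log, which holds the hnRNP change of the typical short gene near 0. The counts for short genes thus do not show that such genes rose only in RBFOX2. Of 2372 genes over 100 kb, 18 were more positive and 2113 more negative with a median of −1.10. Of 20 mitochondrial genes none was more positive and 15 were more negative.

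At single genes the test parted loci that looked alike in RBFOX2. At chr2:101889440-101889509 the difference was 4.15 (limma adjusted p 5.9e-08). The mean share there was 0 with and without PAGE in hnRNPA1, and 0 and 1.62 ppm in hnRNPI. At ENSG00000242808.2 the difference was 0.09 (limma adjusted p 0.78), and its mean share went from 20.8 to 399.9 ppm in hnRNPA1 and from 66.3 to 1087 in hnRNPI. Centred on the median gene that difference was 0.84 (limma adjusted p 0.028). At the most-read chromosome 11 place the difference was −0.26 (limma adjusted p 0.62). At ENSG00000171105.9 and ENSG00000101997.7 it was −2.87 and −3.38 (limma adjusted p 6.5e-06 and 2.8e-07).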

How the data were processed

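Each of the 68 deposited lists holds 8 columns without a header. The p-value of each peak is the authors' deposited value, at most 0.00528 in the 4 lists, with no adjustment stated. The submitters' processing notes name hg19, bcl2fastq, STAR 2.7.3a and UMI-tools 1.0.1 without their roles. The meaning of the last number of a peak name is not stated. It was at least 4 in these lists and was taken for the peak's reads. Neighbouring peaks may recount the same reads and overlapping genes share peaks, so joined peaks were used beside the sums. Python 3.11.15, bedtools 2.31.1 and limma 3.58.1 (R 4.3.3, lmFit and eBayes with trend) were used, and the fit was tested on simulated data. The RecJ, 10k and uncrosslinked libraries were used as reference points only.

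The members, classes and tests were chosen with earlier results of these data known. Identifiers matched 0 entries of the gene table at hand, which has another build, so RNA types, the gene lists planned by symbol and binding sequences were not analysed here, and classes by extent took their place after the data had been seen. Named genes are the 10 highest and 10 lowest called changes whose groups did not overlap, and the 10 most-read genes, with 1 per place, leaving out sex-linked marker genes and chromosome 8. Named sites follow the same rule with 5 of each. At most 2 identifiers are printed per direction. Same-numbered RBFOX2 libraries deviated together with r = 0.0215 over 9023 genes, so the numbers were not taken to pair the samples.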

Additional observations from a re-analysis of the deposited data

Results flagged for a closer look

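Results in this part stand out because the effect of omitting PAGE differed between RBFOX2 and other groups, either by limma's test of the difference (RBFOX2 minus the mean of hnRNPA1 and hnRNPI, log2, adjusted p below 0.05) or, where said, because all libraries of 1 group moved one way and all of the other the opposite way. Depth and list length also differ between these groups, and their part was not tested.

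Among the genes with the highest changes, the difference was 2.69 at chr1:45187504-45187576, 4.15 at chr2:101889440-101889509, 1.03 at chr15:65588389-65588488 and 3.42 at chr14:81669060-81669169. It was 3.02 at chr11:46783978-46784047, 2.49 at chr1:11969888-11969982, 2.29 at chr1:45285544-45308594 and 3.17 at chr20:2634858-2634930. All 8 kept their sign and call when centred on the median gene. In hnRNPI the mean share was also higher without PAGE at all 8. In hnRNPA1 it was 0 with and without PAGE at chr2, chr14 and chr20 and higher without PAGE elsewhere. At chr15:65588389-65588488 it rose from 0 to 23.5 ppm in hnRNPA1 and 48.8 in hnRNPI. At chr1:45187504-45187576 it rose from 1.297 to 33.4 and from 9.76 to 72.8. Adding 5 ppm before the log compresses changes from such low shares. The differences thus do not by themselves show a rise particular to RBFOX2.

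Among the genes with the lowest changes it was −2.87 at chr19:7112293-7293391, −3.38 at chrX:49091991-49106958, −3.30 at chr3:51967458-51975502, −2.78 at chr6:4428197-4428310 and −1.95 at chr12:11802973-12044341. It was −2.29 at chr16:12071110-12667831, −1.90 at chr7:36895082-37488526, −2.25 at chrM:5827-5859, −2.17 at chr2:218154712-218621284 and −2.41 at chr12:56551347-56553337. When centred on the median gene, the gene on chromosome 7 was no longer called, at −1.15 (limma adjusted p 0.0501), and the other 9 were.

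Among the most-read genes it was 1.11 at chr14:95998697-96000938, 1.95 at chr2:234160317-234204268 and 1.36 at chr3:160212868-160283358. It was −1.04 at chrM:1673-3203, and −0.29 and not called when centred. At chr11:65266513-65273500 it was −0.32 and turned to 0.43 when centred (limma adjusted p 0.0067).

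The following opposite directions were not tested. The summed read share of genes up to 400 nt differed by −1.31 percentage points without PAGE in hnRNPA1 and by 25.2 in RBFOX2. Their share of peaks differed by −0.834 points in RBFOX2 without crosslinking and by 0.369 in crosslinked RBFOX2. The share of peaks in genes over 100 kb differed by 0.864 points in hnRNPI and by 3.76 points in RBFOX2 without crosslinking, against −7.29 in crosslinked RBFOX2. The number of peaks was higher without PAGE by 43948.5 in hnRNPI and by 30501.5 in RBFOX2 without crosslinking, and lower in crosslinked RBFOX2. The number of genes listed was higher by 545.5 in hnRNPA1, by 247.5 in hnRNPI and by 2868 in RBFOX2 without crosslinking, and lower in crosslinked RBFOX2. The median width differed by 8 nt in hnRNPI and by −3.5 nt in RBFOX2.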

How the results depend on the processing

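The count of genes with a changed read share was 7692, and 3492 centred on the median gene, 5093 with the library sum taken without genes up to 400 nt and mitochondrial genes (907 higher, 4186 lower), 4867 with joined peaks (882 higher, 3985 lower) and 3437 with joined peaks and centring (1831 higher, 1606 lower). Leaving out 1 library gave 6895 to 7258. The count for peak share was 1591, and 1000 when centred (341 higher, 659 lower), 1007 with joined peaks, 628 with no trend and 0 with no filter, and 0 to 1327 with 1 library left out. The count unlike hnRNPA1 and hnRNPI was 6763, 3214 when centred, and 5879 to 6247 with 1 library left out. Without crosslinking, 3 became 0 to 571 with 1 library left out. The site count was 12074, 5989 when centred, and 6434 to 6970 with 1 library left out.

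The replicate block gave 7802 genes for read share, 1764 for peak share, 6619 unlike the hnRNPs, 12866 sites and 55 genes without crosslinking (3 unblocked). The numbers are not taken to pair the samples.

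With joined peaks, the differences in read share were 13.2 points for genes up to 400 nt and 3.22 for mitochondrial genes, and with each place once 12.4 and 3.82. At p below 1e-05, genes over 100 kb differed by −8.58 points, peak number by −28212, mean read number by 59.1 and median width by −7.5 nt. With joined peaks, mean read number differed by 9.19. PAGE peaks overlapped without PAGE went from 32.1% to 28.5% with 50% overlap of the smaller peak and 41.1% at p below 1e-05, and peaks without PAGE overlapped with it from 46.1% to 41.1% and 53.6%, and 44.5% to 47.8% with 1 library left out.

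The read share of the gene at chr11:65266513-65273500 reversed to 0.52 when centred, 0.19 with the sum without short and mitochondrial genes, 0.068 with joined peaks and 0.47 with both. That at chr1:109642815-109643183 reversed to 0.30 when centred, 0.78 with joined peaks and 1.18 with both. Causes were not tested. The sum without small structured RNA genes was not run, since gene types could not be assigned. Sequencing depth is unknown.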
